A study of Mus musculus with 6 samples.

Results

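The subunits of the respiratory chain and of ATP synthase were compared between lungs of RPM mice infected with a lentivirus for a hairpin against Thoc1 (shThoc1, 3 libraries) and lungs of RPM mice infected with a control hairpin lentivirus (shControl, 3 libraries). RPM is the usual short name of small cell lung cancer mice that lose Rb1 and Trp53 and overexpress Myc, and both groups carry these alleles. The Thoc1 protein belongs to the THO complex, which couples transcription to export of mRNA from the nucleus. The labels give neither the age of the mice, nor the time after infection, nor which cells took up the hairpin, nor how much of each piece of lung was tumour. Nor do they tie a library to an animal, so each p-value reflects the spread between libraries, and that spread may be technical.

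Members were taken by gene symbol and by annotation. A pattern of symbols for nuclear subunits of complexes I to V picked 87 of the 19639 genes in the table, 1 of them the pseudogene Ndufa12-ps. No row carried a symbol with the mouse prefix for mitochondrial genes, but 12 rows carried the RefSeq names of mitochondrially encoded mRNAs (ND1 to ND6, ND4L, CYTB, COX1 to COX3 and ATP6), which made 99 members in all. Of the 13 mRNAs annotated on the mitochondrial genome, ATP8 was not analysed here. The nuclear members were 38 of complex I, 4 of complex II, 8 of complex III, 18 of complex IV and 18 of ATP synthase, with Ndufa4 and Ndufa4l2 placed in complex IV by their role. The filter on low counts left 95 members to test, and the 4 below it were Ndufa12-ps, COX2, COX3 and ATP6.

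Complexes I and II pass electrons from NADH and succinate to ubiquinone, complex III hands them on to cytochrome c, and complex IV passes them to oxygen. Complexes I, III and IV pump protons, and ATP synthase, also called complex V, lets the protons return to make ATP. Most subunits are imported products of nuclear genes, whereas a small hydrophobic set is made inside the organelle, so the complexes need mRNAs from both genomes. In lung, alveolar, airway, muscle and tumour cells differ in how much of this machinery they hold, and some complex IV subunits have isoforms restricted to heart, muscle, brown fat, testis or lung.

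The libraries held 15025199, 9934583 and 13923785 counts in shThoc1 libraries 1, 2 and 3, against 13706926, 12617662 and 13479053 in shControl libraries 1, 2 and 3. Values are CPM, that is counts scaled to a common library size after TMM scaling, and they measure RNA in a whole piece of tissue, in which fewer cells of a type and less RNA per cell cannot be told apart. Thoc1 had 53.4, 69.5 and 61.4 CPM in the shThoc1 libraries, against 85.7, 80.2 and 85.8 CPM in the shControl libraries. The groups did not overlap, with a log2 fold change of -0.45 ± 0.17 (SE) and an adjusted p of 0.304 in edgeR's quasi-likelihood test. The library shThoc1 2 stood apart in its cell markers, a pattern described after the values were seen. The alveolar type 2 gene Sftpc had 161 CPM there, against 2983 to 12597 CPM in the other 5 libraries. Ucp1, the uncoupling protein of brown fat, had 361 CPM in shThoc1 2 and at most 0.586 CPM in any other library. T and NK cell markers (9 genes) summed to 712 CPM in shThoc1 2 and to 25.9 to 65.0 CPM elsewhere. Markers of dividing cells (18 genes, all tested) summed to 91.1, 985 and 191 CPM in shThoc1 libraries 1, 2 and 3, against 2136, 1043 and 1978 CPM in shControl libraries 1, 2 and 3. The counts of members and the medians of the complexes are therefore given with and without shThoc1 2. Values of most single genes are given with all libraries only.

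No subunit passed the test. Of the 95 tested members 0 had an adjusted p under 0.05 in edgeR's quasi-likelihood test, where 0% of all 15287 tested genes were called and the smallest adjusted p was 0.304. At an unadjusted p under 0.05, 4 members were lower and 0 higher in shThoc1, against 9.24% of all genes lower and 6.93% higher. The 4 were Atp5if1, Atp5mc1, Ndufc2 and Atp5mc3. DESeq2, run on the same counts, called 1 member lower, Atp5if1, and 0 higher, against 3.82% of 15629 genes with an adjusted p lower and 2.12% higher. The authors' deposited table gives an adjusted p for 94 members, of which 1 was called lower (Atp5if1) and 0 higher, against 3.69% of 16010 genes lower and 2.04% higher.

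The direction was mostly downward and small. A negative log2 fold change was found in 73 of the 95 tested members, whose median was -0.24, against a median of 0.03 over all tested genes. In 6 members, Atp5if1, Atp5mc1, Atp5mc2, Atp5mc3, Ndufc2 and Sdhc, all 3 shThoc1 libraries lay below all 3 shControl libraries, and in 0 members above them. Over all tested genes 10.5% were lower and 11.1% higher without overlap, so the members' share was near or under the background. Leaving out shThoc1 2, a comparison added after the data were seen, 60 members were lower without overlap and 3 were higher (Cox4i2, Cox6b2 and Ndufa4l2), where the shares over all genes were 27.6% and 28%. In edgeR without that library 0 of the 95 members were called, against 0.933% of 15647 genes called lower and 0.716% higher. At an unadjusted p under 0.05 in that fit, 50 members were lower and 2 higher, against 21.2% of all genes lower and 11.5% higher.

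The complexes did not shift equally. Median log2 fold changes of the nuclear subunits were -0.17 for complex I (33 of 38 below 0), -0.17 for complex II (3 of 4), -0.13 for complex III (5 of 8), -0.32 for complex IV (11 of 18) and -0.45 for ATP synthase (18 of 18). Without its 6 tissue isoforms complex IV had a median of -0.40, with 11 of 12 below 0. Over all 86 nuclear subunits the median was -0.26, and over the 9 tested mitochondrially encoded mRNAs it was 0.06, with 3 of 9 below 0. Without shThoc1 2 the medians were -0.47 for complex I, -0.42 for complex II, -0.48 for complex III, -0.62 for complex IV, -0.81 for ATP synthase and -0.30 for the mitochondrially encoded mRNAs. Leaving out shControl 1 moved the medians of complexes I to V further below 0, to -0.29, -0.26, -0.32, -0.38 and -0.59. Leaving out shControl 2 did the same, to -0.25, -0.24, -0.20, -0.40 and -0.53. Leaving out shThoc1 1, shThoc1 3 or shControl 3 brought the medians of the nuclear complexes nearer to 0. Without shThoc1 1 they were -0.03 for complex I (20 of 38 below 0), -0.06 for complex II, 0.06 for complex III, -0.13 for complex IV and -0.30 for ATP synthase (16 of 18). Without shThoc1 3 they were -0.07, -0.06, 0.01, -0.18 and -0.32 for complexes I to V, and without shControl 3 they were -0.04, -0.06, 0.08, -0.11 and -0.31. Of the 95 members 35 changed the sign of their fold change with at least 1 of the 6 libraries left out, 29 of them nuclear. ATP synthase had the lowest median of the 5 complexes with all libraries and with each one left out, when complex IV included its tissue isoforms. Without shControl 2, complex IV without these isoforms was slightly lower, at -0.55 against -0.53 for ATP synthase. These differences between complexes were not tested.

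**Figure D1:**
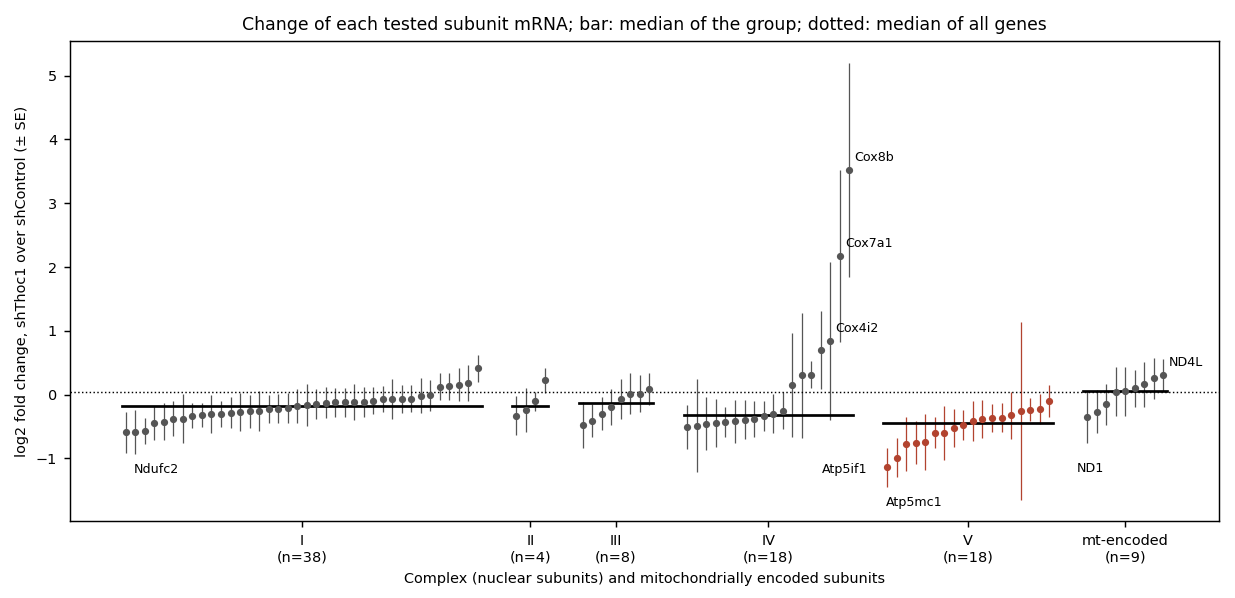
Log2 fold change of shThoc1 over shControl for each of the 95 tested subunit mRNAs (points, with SE as bars), sorted within nuclear complexes I to V and within the mitochondrially encoded (mt-encoded) set. Black bars are group medians, from -0.45 for complex V (red) to 0.06 for the mt-encoded set, and the dotted line is the median of all tested genes, 0.03.

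The library order was similar for most nuclear subunits. Relative to each gene's own mean over the 6 libraries, the nuclear set stood at -0.40, 0.30 and -0.27 (median of log2(CPM + 0.5) differences) in shThoc1 libraries 1, 2 and 3, against 0.07, -0.09 and 0.42 in shControl libraries 1, 2 and 3. Among the 80 nuclear subunits outside the tissue isoforms, 60 had their highest value in shControl 3 and 19 in shThoc1 2, and 54 had their lowest value in shThoc1 1. In 73 of the 80, shThoc1 2 was above shControl 2, so the groups overlapped there. In 58 of the 80, shThoc1 1 and shThoc1 3 were both below all 3 shControl libraries, which held for 27.6% of all tested genes. For ATP synthase the relative levels were -0.59, 0.24 and -0.40 in the shThoc1 libraries and 0.20, -0.04 and 0.57 in the shControl libraries. The high level in shThoc1 2 came with the brown fat, T cell and low alveolar markers given above. It also came with a dividing-cell sum of 985 CPM, above those of shThoc1 1 and 3. The low levels in shThoc1 1 and 3 came with the lowest sums of dividing-cell markers, 91.1 and 191 CPM. In shControl 3, where most of these subunits were highest, that sum was 1978 CPM, under the 2136 CPM of shControl 1. The part of tissue composition in the subunit levels was not tested.

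**Figure D2:**
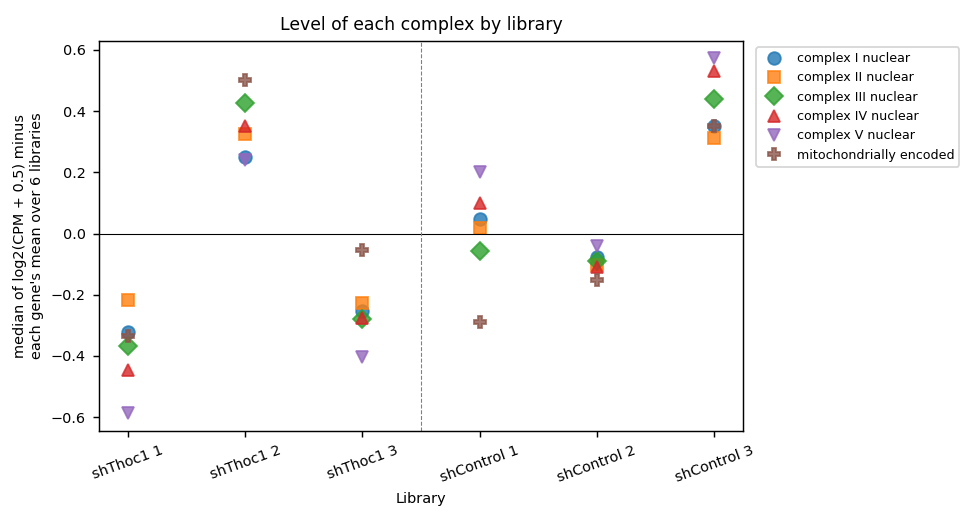
Level of each nuclear complex and of the mitochondrially encoded mRNAs in each library, as the median over members of log2(CPM + 0.5) minus the gene's mean over the 6 libraries (shThoc1 left of the dashed line, shControl right). The libraries shThoc1 1 and 3 lie low and shThoc1 2 and shControl 3 lie high for all 5 nuclear complexes, with ATP synthase spread widest, from -0.59 to 0.57.

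The 3 genes for the c subunit of ATP synthase, the rotor ring through which protons pass, were all lower in shThoc1. Atp5mc1, Atp5mc2 and Atp5mc3 encode the same mature protein behind different import sequences. Their promoters are shown because the genes make 1 protein from separate promoters, beside Cox8b, a muscle and brown fat isoform that had the highest fold change of all members. Each runs from 250 bases before to 50 bases after the RefSeq start of transcription (build GRCm38.p6, all on the minus strand, printed 5′ to 3′), at chr11:96075582-96075881, chr15:102670998-102671297, chr2:73911277-73911576 and chr7:140900397-140900696. Capitals mark matches on either strand to 6 motifs searched by their letters, the NRF1 motif GCGCATGCG, the ETS motif CCGGAAG, the YY1 motif AAGATGG, the SP1 motif GGGCGG, the CCAAT box and the TATA box TATAAA.
Atp5mc1: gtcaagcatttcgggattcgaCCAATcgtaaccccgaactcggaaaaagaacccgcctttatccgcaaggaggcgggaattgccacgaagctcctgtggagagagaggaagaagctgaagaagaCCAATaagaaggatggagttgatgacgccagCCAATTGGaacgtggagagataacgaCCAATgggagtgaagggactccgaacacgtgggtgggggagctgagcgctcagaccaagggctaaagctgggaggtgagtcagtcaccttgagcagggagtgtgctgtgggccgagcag
Atp5mc2: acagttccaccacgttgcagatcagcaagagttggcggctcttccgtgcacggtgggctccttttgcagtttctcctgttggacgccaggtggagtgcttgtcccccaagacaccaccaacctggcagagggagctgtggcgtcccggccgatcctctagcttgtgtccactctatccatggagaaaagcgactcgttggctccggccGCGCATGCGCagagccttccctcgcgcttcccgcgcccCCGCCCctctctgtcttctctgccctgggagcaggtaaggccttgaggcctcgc
Atp5mc3: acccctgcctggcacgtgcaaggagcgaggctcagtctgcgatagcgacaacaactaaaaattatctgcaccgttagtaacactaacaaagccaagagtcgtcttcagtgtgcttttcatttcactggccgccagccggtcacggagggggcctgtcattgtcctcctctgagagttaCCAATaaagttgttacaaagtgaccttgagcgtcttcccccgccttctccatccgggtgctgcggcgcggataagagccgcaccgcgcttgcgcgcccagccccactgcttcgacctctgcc
Cox8b: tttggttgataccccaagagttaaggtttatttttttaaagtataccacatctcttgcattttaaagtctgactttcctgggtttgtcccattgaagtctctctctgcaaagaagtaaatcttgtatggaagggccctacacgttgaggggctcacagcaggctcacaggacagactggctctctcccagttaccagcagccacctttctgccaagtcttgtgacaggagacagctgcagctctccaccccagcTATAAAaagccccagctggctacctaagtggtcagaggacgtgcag
Atp5mc1 held 5 matches to CCAAT, of which the pair in CCAATTGG overlap on opposite strands, and Atp5mc3 held 1. Atp5mc2 held the NRF1 motif, read on both strands of the same 10 bases, and 1 SP1 motif in its reverse form. Cox8b held 1 TATA box and none of the other 5. A match is a description of letters and not a bound site. Of the 86 nuclear members 70 had a promoter in the RefSeq table. The NRF1 motif, named for a factor known to regulate respiratory genes, was in 8 of the 70 (11.4%), against 1.81% of all 27025 promoters. The ETS motif was in 22.9% of the members and 9.12% of all, and the YY1 motif in 14.3% and 6.48%. The SP1 motif was in 40.0% and 35.9%, the CCAAT box in 41.4% and 37.9%, and the TATA box in 10% and 14.2%.

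Atp5mc1 had 46.4, 72.7 and 49.4 CPM in shThoc1 libraries, against 114.1, 77.2 and 143.1 CPM in shControl libraries. The highest shThoc1 value was just under the lowest shControl value, and the log2 fold change was -0.99 ± 0.30 (SE, adjusted p = 0.304). Atp5mc3 had 129.5, 197.2 and 153.4 CPM in shThoc1 libraries and 226.4, 210.1 and 291.2 CPM in shControl libraries, again without overlap, at -0.60 ± 0.24 (adjusted p = 0.307). Atp5mc2 had 94.7, 154.7 and 115.8 CPM in shThoc1 libraries and 157.0, 158.0 and 194.2 CPM in shControl libraries, at -0.48 ± 0.24 (adjusted p = 0.347). In all 3 genes shThoc1 2 came closest to the shControl libraries. Of the counts of the 3 c genes, Atp5mc1 made up 17.1%, 17.1% and 15.5% in shThoc1 libraries, against 22.9%, 17.3% and 22.8% in shControl libraries, so its share was lowest in shThoc1 with shControl 2 close by.

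Atp5if1 encodes the inhibitor that binds ATP synthase and stops it from running in reverse. It had 53.7, 86.1 and 68.4 CPM in shThoc1 libraries, against 162.7, 103.0 and 192.2 CPM in shControl libraries. All shThoc1 values lay below all shControl values, and the means were 69.4 ± 16.2 CPM in shThoc1 and 152.6 ± 45.5 CPM in shControl (SD, n = 3 each). The log2 fold change was -1.14 ± 0.30 (SE), with an unadjusted p of 0.00925 and an adjusted p of 0.304 in edgeR's quasi-likelihood test. DESeq2 gave -1.16 with an adjusted p of 0.0294, and the authors' deposited table lists -1.16 with an adjusted p of 0.0301. Atp5if1 was the member with the smallest p in each of these 3 analyses.

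The 9 nuclear subunits of the F1 head and the stalks all had log2 fold changes below 0, with a median of -0.36. With 1 library left out, 7 to 9 of them were below 0. Atp5f1b, the catalytic beta subunit, had 532.0, 1038 and 481.5 CPM in shThoc1 libraries and 1191, 722.6 and 1521 CPM in shControl libraries. Here shThoc1 2 exceeded shControl 2, and the log2 fold change was -0.74 ± 0.43 (adjusted p = 0.400). Atp5f1a, the alpha subunit, had 474.8, 683.1 and 442.1 CPM in shThoc1 and 795.6, 568.8 and 942.6 CPM in shControl, at -0.53 ± 0.30 (adjusted p = 0.393). Atp5mk, a small membrane subunit, had 30.0, 60.9 and 34.7 CPM in shThoc1 libraries and 75.6, 52.1 and 83.9 CPM in shControl libraries, at -0.75 ± 0.34 (adjusted p = 0.326). The counts of Atp5mk were identical to those of Gm35857 in every library, so these rows cannot be told apart. The smallest difference of the complex was that of Atp5pd, a subunit of the peripheral stalk, at -0.10 ± 0.24. The other members of the complex, apart from Atp5if1 and Atp5mc1, lay between -0.77 (Atp5po) and -0.22 (Atp5mg).

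Atp5f1e, the epsilon subunit of the F1 head, did not follow the library order of its complex. It had 1.32, 64.0 and 34.3 CPM in shThoc1 libraries, against 3.22, 48.9 and 66.3 CPM in shControl libraries. It was low in 1 library of each group, and the log2 fold change was -0.25 ± 1.39. Of all 19639 genes it was the 1 gene with over 3 CPM in the other 4 libraries and more than 5 times its value in both shThoc1 1 and shControl 1 in each of them. Without these 2 libraries the log2 fold change was -0.31 ± 0.44. Cox7a2 was low in shThoc1 1 alone, with 15.8, 131.4 and 87.8 CPM in shThoc1 libraries and 149.0, 67.4 and 113.3 CPM in shControl libraries. Its log2 fold change was -0.49 ± 0.73, and 0.04 without shThoc1 1. Apart from Cox7a2, 1 gene, Cacfd1, had over 10 CPM in the other 5 libraries and more than 3 times its shThoc1 1 value in each. Why these rows were low in single libraries was not tested.

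**Figure D3:**
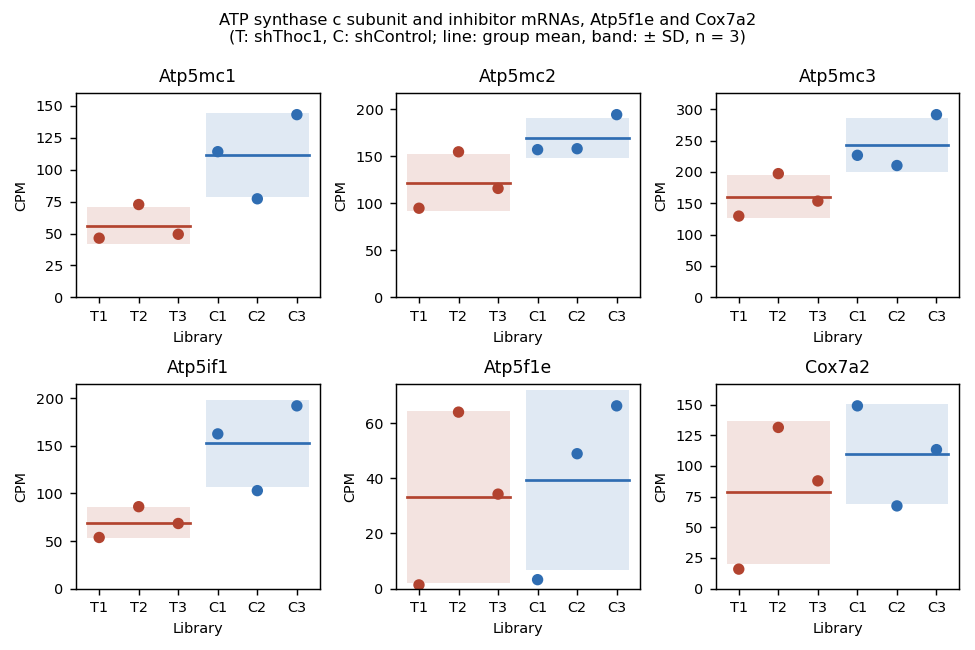
CPM by library for the c subunit genes Atp5mc1, Atp5mc2 and Atp5mc3, the inhibitor Atp5if1, and Atp5f1e and Cox7a2 (T, shThoc1; C, shControl; lines are group means and bands ± SD, n = 3 each). In the first 4 panels all shThoc1 values lie below all shControl values, with T2 nearest, whereas Atp5f1e is near 0 in T1 and C1 and Cox7a2 is low in T1.

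Complex I is the entry point of electrons from NADH. Its 7 nuclear core subunits, which carry the flavin and the iron-sulfur clusters, had a median log2 fold change of -0.22 with 6 of 7 below 0, and the 31 accessory subunits a median of -0.16 with 27 of 31 below 0. Ndufs1, the core subunit with several iron-sulfur clusters, had 84.2, 114.8 and 80.9 CPM in shThoc1 libraries and 107.9, 109.2 and 128.4 CPM in shControl libraries. The groups overlapped through shThoc1 2, at -0.30 ± 0.20 (adjusted p = 0.448). Ndufv1, which binds NADH, was at -0.22 ± 0.23. Ndufs7, a core subunit that carries an iron-sulfur cluster, was the single core member above 0, at 0.13 ± 0.21.

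Ndufc2, an accessory subunit of the membrane arm, was the single complex I member without overlap. It had 71.9, 93.0 and 83.7 CPM in shThoc1 libraries, against 117.8, 103.4 and 146.3 CPM in shControl libraries, at -0.56 ± 0.20 (unadjusted p = 0.0312, adjusted p = 0.304). Ndufa6, an accessory subunit that anchors an acyl carrier protein, had the highest fold change of complex I. It had 67.8, 90.6 and 71.5 CPM in shThoc1 libraries and 48.1, 55.8 and 68.4 CPM in shControl libraries, overlapping by less than 1 CPM, at 0.42 ± 0.21 (adjusted p = 0.357). Ndufb4 and Ndufb4b had identical counts in all libraries, and every 50-base stretch of Ndufb4c was shared with other transcripts, so these 3 rows cannot be counted as separate evidence. The member counts in this report still hold all 3 rows, which had log2 fold changes of -0.12, -0.12 and -0.13. In the reference at hand 27 of the 82 nuclear members with a transcript shared over 10% of their 50-base stretches with transcripts of other genes.

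Complex II, succinate dehydrogenase, also serves the citric acid cycle and is wholly nuclear encoded. Sdha, the flavoprotein that oxidises succinate, had 244.2, 298.0 and 245.1 CPM in shThoc1 libraries and 206.0, 211.8 and 255.6 CPM in shControl libraries. It was above 0 at 0.23 ± 0.20, while Sdhb, the iron-sulfur subunit, was at -0.24 ± 0.34 and Sdhd, a membrane anchor, at -0.33 ± 0.31. Sdhc, the other anchor, had 79.3, 73.5 and 78.2 CPM in shThoc1 libraries, against 80.7, 79.7 and 88.0 CPM in shControl libraries. These groups did not overlap, yet the gap was small and the log2 fold change was -0.10 ± 0.15 (adjusted p = 0.709). Among the 80 nuclear subunits outside the tissue isoforms, Sdhc was also the 1 member with its lowest value in shThoc1 2.

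In complex III, Uqcrc1, a core subunit, had 80.3, 115.5 and 76.0 CPM in shThoc1 libraries and 129.1, 91.4 and 139.7 CPM in shControl libraries, at -0.41 ± 0.26 (adjusted p = 0.425). Uqcrfs1, the Rieske iron-sulfur protein, was at -0.30 ± 0.26, and Uqcrq, a small subunit, was lowest of the complex at -0.48 ± 0.36. The second core subunit, Uqcrc2, was at 0.01 ± 0.32. The median of complex III turned positive when shThoc1 1, shThoc1 3 or shControl 3 was left out, at most 0.08, so its direction rested on single libraries.

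The 11 complex IV subunits below 0 were those present in most tissues, together with Ndufa4. Cox4i1, the general form of the regulatory subunit COX4, had 261.7, 415.1 and 302.3 CPM in shThoc1 libraries and 392.6, 352.3 and 533.1 CPM in shControl libraries, at -0.38 ± 0.28 (adjusted p = 0.478). Cox5a and Cox5b, structural subunits around the catalytic core, were at -0.51 ± 0.34 and -0.44 ± 0.38. Cox6a1 was at -0.43 ± 0.24, Cox8a at -0.39 ± 0.31, Cox6b1 at -0.30 ± 0.30 and Ndufa4 at -0.25 ± 0.29, each with overlapping groups. Cox7a2l, a relative of Cox7a2 that joins complexes III and IV into supercomplexes, was the exception among the general subunits. It had 232.2, 294.3 and 251.4 CPM in shThoc1 libraries and 175.0, 212.8 and 238.1 CPM in shControl libraries, at 0.31 ± 0.21 (adjusted p = 0.446).

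All 6 tissue isoforms had log2 fold changes above 0, with a median of 0.77, and the smallest adjusted p among them was 0.340. With 1 library left out, 0 to 2 of the 6 were below 0. Their library patterns differed. Cox8b and Cox7a1, isoforms of heart, skeletal muscle and brown fat, were highest in shThoc1 2. Cox8b had 2.15, 31.2 and 1.71 CPM in shThoc1 libraries, against 0.140, 0.159 and 2.71 CPM in shControl libraries, and shControl 3 exceeded shThoc1 1 and 3. Its log2 fold change was 3.52 ± 1.68 (adjusted p = 0.340). Cox7a1 had 2.5, 19.95 and 1.93 CPM in shThoc1 libraries and 0.350, 0.558 and 4.47 CPM in shControl libraries, at 2.17 ± 1.35. Cox6a2, the isoform of heart and skeletal muscle, had 8.62, 8.89 and 6.09 CPM in shThoc1 libraries and 1.82, 1.28 and 16.0 CPM in shControl libraries, at 0.30 ± 0.98, and it was highest in shControl 3. Without shThoc1 2 the log2 fold changes of Cox8b and Cox7a1 were 0.87 and 0.24, each with an SE above the value.

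Markers of brown fat and of muscle had their highest sums in the libraries where Cox8b, Cox7a1 or Cox6a2 were highest. Brown fat markers (9 genes, 6 of them tested) summed to 48.4, 621 and 38.3 CPM in shThoc1 libraries and to 52.0, 26.4 and 111 CPM in shControl libraries, and 2 of the 9, Elovl3 and Otop1, had 0 counts in some library. Markers of heart and skeletal muscle (15 genes, 13 tested) summed to 488, 336 and 317 CPM in shThoc1 libraries and to 117, 47.9 and 632 CPM in shControl libraries, and 4 of the 15 had 0 counts in some library (Acta1 in shThoc1 3, and Ckm, Ckmt2 and Myoz2 in shControl 2). The brown fat sum was highest where Cox8b and Cox7a1 were highest, and the muscle sum was highest where Cox6a2 was highest. Single markers did not all share the order of their sum. Ucp1 and Cidea, at 361 and 112.5 CPM, made up most of the brown fat sum in shThoc1 2. Ppargc1a of the same list was highest in shControl 3, at 51.9 CPM. Of the muscle markers, Myl7, Actc1 and Myl4 were highest in shControl 3, whereas Myh6 and Myh7 were highest in shThoc1 1. The part of brown fat, heart or muscle tissue in these values was not tested.

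Cox4i2, the lung isoform of COX4, Ndufa4l2, a relative of Ndufa4 known as a hypoxia target, and Cox6b2, known as the testis isoform, showed the opposite library pattern. Cox4i2 had 35.0, 0.296 and 32.5 CPM in shThoc1 libraries, against 8.12, 16.9 and 13.0 CPM in shControl libraries. It was highest in shThoc1 1 and 3 and almost absent from shThoc1 2, and the log2 fold change was 0.84 ± 1.24 (adjusted p = 0.723). Without shThoc1 2 it was 1.35 ± 0.34, with an adjusted p of 0.0742 in edgeR, so it was not called there either. Ndufa4l2 had 10.1, 0.889 and 9.44 CPM in shThoc1 libraries and 6.51, 5.02 and 6.96 CPM in shControl libraries, at 0.15 ± 0.81. Cox6b2 had 7.44, 1.88 and 6.98 CPM in shThoc1 libraries and 3.15, 4.62 and 2.27 CPM in shControl libraries, at 0.70 ± 0.61. As a share of both COX4 isoforms, Cox4i2 made up 11.8%, 0.0713% and 9.72% of counts in shThoc1 libraries and 2.03%, 4.57% and 2.37% in shControl libraries.

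The endothelial markers (8 genes, all tested) had a like library pattern, with sums of 3773, 262 and 2871 CPM in shThoc1 libraries and 1006, 1818 and 894 CPM in shControl libraries. This pattern was not particular to vessels. Alveolar type 2 markers (10 genes) summed to 23402, 1623 and 21964 CPM in shThoc1 libraries and to 7304, 16950 and 7732 CPM in shControl libraries. Alveolar type 1 markers (8 genes) summed to 6002, 354 and 5396 CPM in shThoc1 and to 1631, 3444 and 1811 CPM in shControl. Higd1b, a pericyte gene picked after its values were seen, had 22.2, 1.48 and 20.3 CPM in shThoc1 libraries and 8.33, 17.4 and 8.35 CPM in shControl libraries. Hypoxia target genes (9 genes, all tested) summed to 1165, 801 and 1141 CPM in shThoc1 libraries and to 1198, 1121 and 1312 CPM in shControl libraries. This sum was also lowest in shThoc1 2. The median log2 fold change of these genes was -0.25, with 7 of 9 below 0. Whether Cox4i2 and Ndufa4l2 follow vascular content, alveolar content or hypoxia was not tested.

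**Figure D4:**
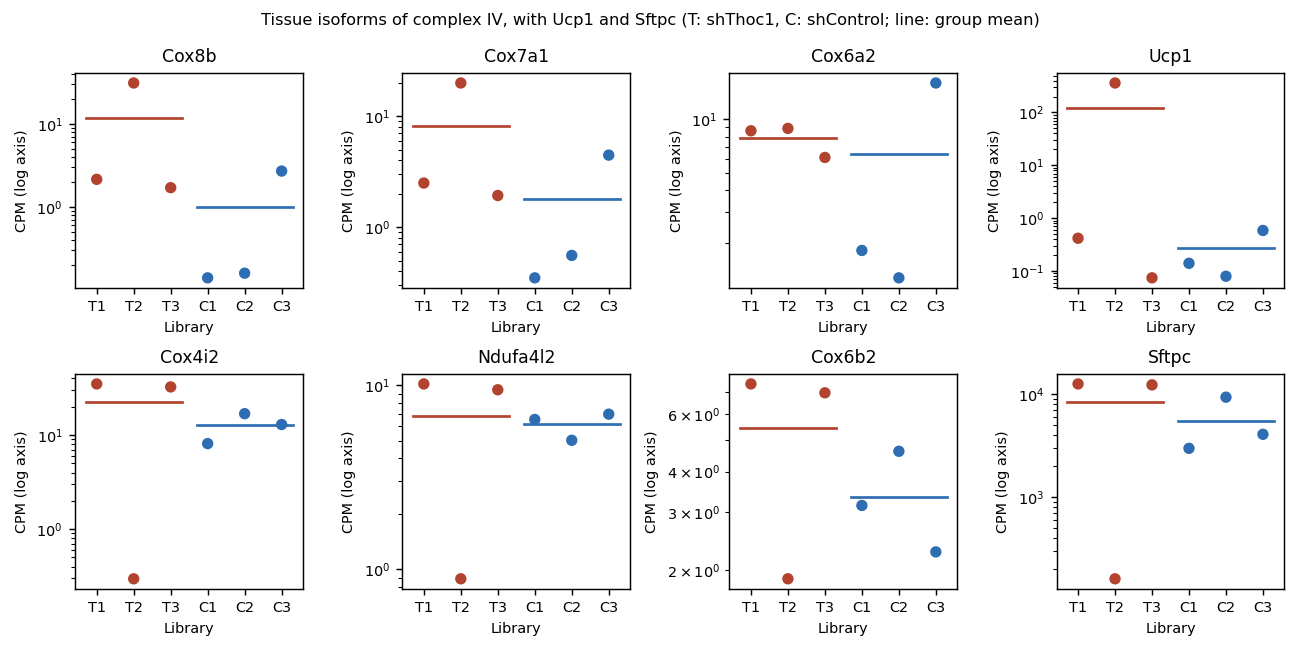
CPM by library on a log axis for the 6 tissue isoforms of complex IV, with Ucp1 (brown fat) and Sftpc (alveolar type 2 cells) for comparison (T, shThoc1; C, shControl; lines are group means). Cox8b, Cox7a1 and Ucp1 are highest in T2, where Cox4i2, Ndufa4l2, Cox6b2 and Sftpc are lowest.

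Relative to the nuclear subunits, the mitochondrially encoded mRNAs were higher in shThoc1, a comparison that carries no test. The 12 rows together made up 2.73%, 5.48% and 3.53% of all counts in shThoc1 libraries, against 3.42%, 3.41% and 5.01% in shControl libraries, and the groups overlapped. The nuclear members made up 0.668%, 1.15% and 0.726% in shThoc1 libraries, against 1.07%, 0.883% and 1.33% in shControl libraries. The ratio of mitochondrial to nuclear counts was 4.09, 4.76 and 4.86 in shThoc1 libraries and 3.19, 3.86 and 3.76 in shControl libraries. All 3 shThoc1 ratios lay above all 3 shControl ratios, with a mean log2 difference of 0.34. This difference was 0.31 without shThoc1 2, and 0.22 to 0.42 over the alternatives run. Over the 5 mitochondrial and 55 nuclear rows that shared under 10% of their 50-base stretches with other transcripts, the ratios were 2.75, 3.20 and 3.28 in shThoc1 libraries and 2.2, 2.70 and 2.62 in shControl libraries.

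Among the single mRNAs, COX1, the catalytic core of complex IV, had 12518, 23690 and 16122 CPM in shThoc1 libraries and 14472, 14804 and 21341 CPM in shControl libraries, at a log2 fold change of 0.05 ± 0.38. It gave 43.2% to 44.2% of all mitochondrial mRNA counts in every library. CYTB, the cytochrome b of complex III, was at 0.06 ± 0.38, and ND5, a proton-pumping subunit of complex I, at 0.10 ± 0.29. Without shThoc1 2, 8 of the 9 mRNAs were below 0, among them COX1 at -0.30, CYTB at -0.33, ND5 at -0.12, ND4 at -0.16 and ND2 at -0.04. ND4L, another membrane subunit, had 118.0, 192.0 and 143.0 CPM in shThoc1 libraries and 103.4, 116.9 and 144.9 CPM in shControl libraries, at 0.31 ± 0.25 (adjusted p = 0.517), the highest fold change of the 9, and the single one above 0 without shThoc1 2, at 0.03.

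ND1, a subunit next to the ubiquinone pocket, was the lowest of the 9 and had 2828, 6288 and 3830 CPM in shThoc1 libraries, against 4836, 4495 and 7179 CPM in shControl libraries, at -0.35 ± 0.40 (adjusted p = 0.649). ND2, its neighbour among the complex I mRNAs, was at 0.25 ± 0.32 with all libraries. Within a library, the ratio of ND1 to ND2 counts was 1.24, 1.65 and 1.40 in shThoc1 libraries, against 2.34, 1.98 and 2.35 in shControl libraries, without overlap. The ratio of ND3 to ND2 was 0.0847, 0.106 and 0.0889 in shThoc1 libraries and 0.143, 0.128 and 0.139 in shControl libraries, also without overlap. Set beside these, CYTB to ND2 was 2.049, 2.46 and 2.203 in shThoc1 libraries and 2.579, 2.496 and 2.716 in shControl libraries. For ND5 to ND2 the values were 0.8396, 0.7267 and 0.8279 in shThoc1 and 0.8747, 0.8735 and 0.8802 in shControl. Neither overlapped, so the difference was not particular to ND1 and ND3. For ND4 to ND2 the groups overlapped. All of these ratios share ND2, so they are not separate evidence. These ratios were picked after their values were seen, so they carry no test. They describe counts of mRNAs cut from shared transcripts. ND3 shared 98.0% of its 50-base stretches with transcripts of other genes, whereas ND1 shared 0% and ND2 8.19%. The parts of ND2 alone and of shared sequence in these ratios were not tested.

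Per length, COX1 was the most abundant, at 8102, 15334 and 10435 CPM per kb in shThoc1 libraries and 9367, 9582 and 13813 CPM per kb in shControl libraries. CYTB followed in most libraries, at 4086, 8200 and 5260 CPM per kb in shThoc1 and 4655, 4963 and 7259 CPM per kb in shControl. The lowest of the tested mRNAs per length was ND6, made from the other DNA strand, at 313.6, 490.8 and 347.2 CPM per kb in shThoc1 and 308.5, 369.0 and 603.1 CPM per kb in shControl, except that ND4L was lower in shControl 3. COX2, COX3 and ATP6 were near 0, with 4, 0 and 0 counts for COX2 in shThoc1 libraries and 0, 0 and 9 in shControl libraries, 0 to 2 counts for COX3 and 0 to 2 for ATP6. In the reference, 100% of the 50-base stretches of COX2, 99.9% of COX3 and 99.5% of ATP6 also occur in transcripts of other genes, such as Gm28661, Gm28437 and Gm10925. The rows of these 3 mRNAs are not read as their levels, and the part of shared sequence in them was not tested.

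**Figure D5:**
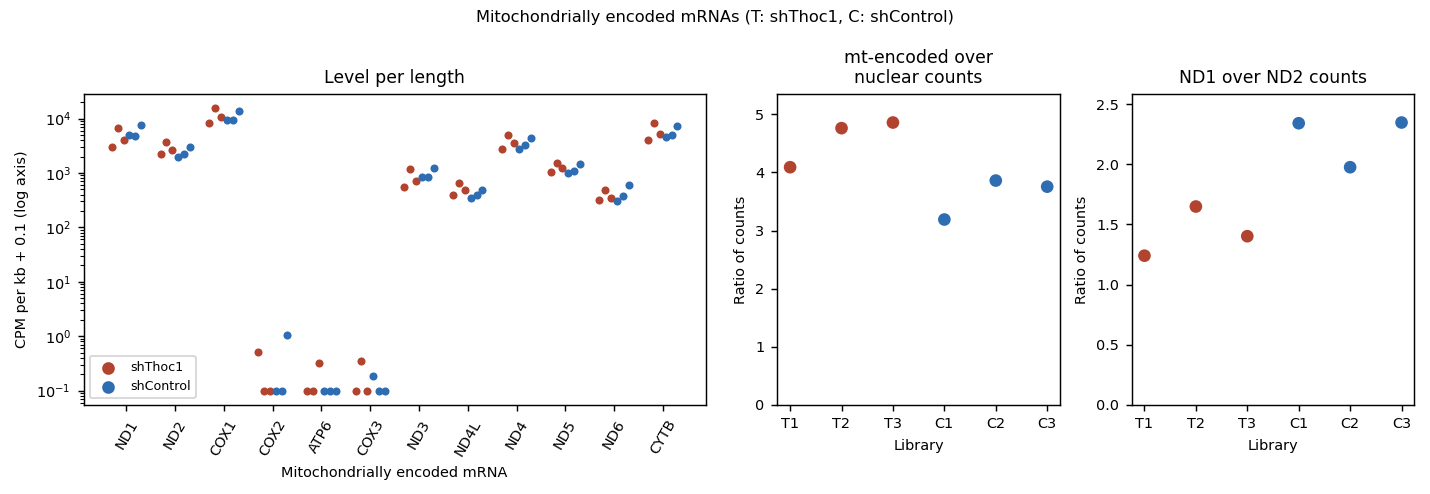
Mitochondrially encoded mRNAs per library: level per length on a log axis with 0.1 added (left; shThoc1 red, shControl blue), ratio of mitochondrial to nuclear subunit counts (middle), and ratio of ND1 to ND2 counts (right). COX2, ATP6 and COX3 lie at the floor. The middle ratios are 4.09 to 4.86 in shThoc1 and 3.19 to 3.86 in shControl, and the right ones 1.24 to 1.65 in shThoc1 and 1.98 to 2.35 in shControl.

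Genes that serve the chain without being members were counted by lists. Of 56 tested assembly factors 35 were below 0 (median log2 fold change -0.11) and 0 were called by edgeR, and 4 were lower and 6 higher without overlap, against 10.5% and 11.1% of all tested genes, so these counts were near or under the background. Ndufaf2, a complex I assembly factor, had 6.46, 8.99 and 8.25 CPM in shThoc1 libraries and 15.5, 13.1 and 19.3 CPM in shControl libraries, at -1.01 ± 0.28 (adjusted p = 0.304). Of 20 tested electron carriers, ubiquinone synthesis genes and subunits with other symbols, 13 were below 0 (median -0.24) and 0 were called. Pdss1, which makes the side chain of ubiquinone, had 4.87, 11.9 and 4.61 CPM in shThoc1 libraries and 29.0, 13.8 and 36.1 CPM in shControl libraries, at -1.89 ± 0.54 (adjusted p = 0.304). In both genes shThoc1 2 came closest to shControl 2.

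Of 29 tested genes of mitochondrial DNA expression 22 were below 0 (median -0.27), 0 were called, and 3 were lower and 1 higher without overlap, again against 10.5% and 11.1% of all tested genes. Elac2, which cuts mitochondrial tRNAs from their precursors, had 19.7, 27.5 and 22.4 CPM in shThoc1 libraries and 57.8, 29.4 and 62.0 CPM in shControl libraries, at -1.10 ± 0.33 (adjusted p = 0.304). Of 19 citric acid cycle genes 15 were below 0 (median -0.14) and 0 were called, with Dlst, an enzyme of the oxoglutarate dehydrogenase complex, at -0.31 ± 0.17. Of 15 regulators of mitochondrial biogenesis 7 were below 0 (median 0.02), 0 were called, and 2 were lower and 3 higher without overlap, against the same shares. Tfeb, a transcription factor of lysosome and mitochondrial turnover genes, had 20.4, 14.0 and 17.2 CPM in shThoc1 libraries and 8.54, 9.24 and 7.40 CPM in shControl libraries, at 1.04 ± 0.26 (adjusted p = 0.304). Ppargc1a, the coactivator PGC-1 alpha, was picked after its values were seen. It had 4.59, 9.88 and 5.65 CPM in shThoc1 libraries and 21.6, 3.82 and 51.9 CPM in shControl libraries, at -1.95 ± 0.89 with overlapping groups. At an unadjusted edgeR p under 0.05, 1 assembly factor was lower and 1 higher, 1 carrier gene lower, 1 gene of mitochondrial DNA expression lower, 1 regulator lower and 2 higher, and 0 citric acid cycle genes either way, where 9.24% of all tested genes were lower and 6.93% higher. DESeq2 called 1 assembly factor and 1 carrier gene lower and 1 regulator higher, where it called 3.82% of all genes lower and 2.12% higher. Counts this small say nothing particular to these lists.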

How the data were processed

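RNA from 6 mouse lung samples was purified with an RNeasy kit and made into NEBNext Ultra libraries, per the labels' protocols. The genome build was GRCm39, per the submitters' processing notes, whereas an aligner and a counting tool are not named by any source used here. For each gene the authors deposited the raw count in every library. The deposited file also holds the authors' log2 fold change and its standard error, a test statistic (a score, not used), a p-value and an adjusted p-value for each gene. A mean normalized signal per gene in the deposited file was not used.

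Samples were grouped by their labels. Replicate numbers follow the order of the records and pair nothing. The 15287 genes that passed filterByExpr entered edgeR 4.0.16 in R 4.3.3, where TMM-scaled counts were compared by its robust quasi-likelihood test. P-values were adjusted over all of these genes after Benjamini and Hochberg, and a call required an adjusted value under 0.05. All values after ± beside a log2 fold change are standard errors. DESeq2 1.42.0 was an alternative. Others were edgeR with the size factors of DESeq2 or with upper quartile scaling, scaling without mitochondrial genes, no filter, a filter of at least 1 CPM in 3 libraries, each library left out in turn, and shThoc1 libraries 2 and 3 summed, since their titles share a number. Medians over lists carry no test. The scripts were tested on simulated data. Total counts per library limit precision for rows of few counts. 

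Members and lists were chosen with earlier results of these data known. Named members are the 5 with the smallest p in each direction, the smallest in each complex, and isoform families, core and regulatory subunits, with the smallest p of each other pathway list. Other members were named with their values known. Mitochondrial rows, promoters and shared 50-base stretches were matched to reference tables of build GRCm38, another build than that of the counts. Strand use in counting is not given, so overlapping genes cannot be told apart. Of list entries, Coa1, Fastkd4, Trac and Ca9 were not analysed here.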

Additional observations from a re-analysis of the deposited data

How the results depend on the processing

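No edgeR alternative with all 6 libraries called any gene, and DESeq2 called 597 lower and 332 higher. It called 1 member lower (Atp5if1), 1 assembly factor lower, 1 carrier or other subunit lower and 1 biogenesis regulator higher. With 1 library left out, edgeR called 0 to 146 genes lower and 0 to 112 higher, the upper figures without shThoc1 2. With 1 library left out the medians ranged from -0.47 to -0.028 for complex I, from -0.42 to -0.056 for complex II, from -0.48 to 0.075 for complex III, from -0.62 to -0.11 for complex IV, from -0.81 to -0.30 for ATP synthase, from -0.56 to -0.074 for all nuclear subunits, from -0.30 to 0.28 for the mitochondrially encoded mRNAs and from -0.38 to 0.009 for assembly factors. The lowest of each was without shThoc1 2. Without that library 60 members were lower and 3 higher without overlap, against 6 and 0 with it. For ATP synthase 16 to 18 of 18 subunits were below 0 in every alternative run. Directions turned for 35 of the 95 members with some library left out, between 6 (without shControl 2) and 19 (without shThoc1 1) at a time. Among those with a value in the text the ranges were -0.072 to 0.29 for Ndufs7, -0.45 to 0.25 for Uqcrc2, -0.38 to 0.062 for Atp5pd, -0.23 to 2.34 for Cox6a2, -1.15 to 0.041 for Cox7a2, -0.30 to 0.60 for Ndufa4l2, -1.23 to 0.36 for Atp5f1e, -0.12 to 0.29 for ND5, -0.33 to 0.30 for CYTB, -0.043 to 0.45 for ND2, -0.16 to 0.38 for ND4 and -0.30 to 0.28 for COX1. With shThoc1 libraries 2 and 3 summed, ND5 was at -0.039, CYTB at -0.15 and COX1 at -0.15. The causes were not tested. Scaling moved the median of all genes by less than 0.1. No paired analysis was possible because the titles share fewer than 2 numbers between the groups. Rows with few counts, such as Cox8b in shControl, are limited by depth.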

Other observations

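The electron carrier cytochrome c (Cycs), named here with its values known, had 78.5, 252.5 and 81.6 CPM in shThoc1 libraries and 215.3, 133.1 and 288.5 CPM in shControl libraries. Cyc1, the cytochrome c1 of complex III, had 52.3, 84.6 and 47.3 CPM in shThoc1 libraries and 91.2, 60.6 and 113.3 CPM in shControl libraries. In both genes shThoc1 1 and 3 were lowest and shThoc1 2 lay above shControl 2, the library order of most nuclear subunits. The log2 fold changes were -0.63 ± 0.56 for Cycs and -0.52 ± 0.33 for Cyc1 (SE), and neither was called by edgeR.

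Lactate dehydrogenase A (Ldha), which makes lactate from pyruvate, had 195.9, 445.2 and 215.2 CPM in shThoc1 libraries and 686.1, 434.6 and 783.0 CPM in shControl libraries, at a log2 fold change of -1.15 ± 0.42 (adjusted p = 0.304). The groups overlapped between shThoc1 2 and shControl 2. Neuroendocrine tumour markers (16 genes, all tested and all below 0) summed to 298, 483 and 353 CPM in shThoc1 libraries and to 1733, 287 and 1596 CPM in shControl libraries. The summed level was thus low in shControl 2 as well. The typical marker had another order. Relative to each gene's own mean over all libraries, the median marker stood at -2.79, 0.864 and -2.488 (log2) in shThoc1 libraries. In shControl libraries it stood at 2.737, -0.957 and 2.765. By this median shControl 2 lay below shThoc1 2 but above the other shThoc1 libraries, although its sum was the lowest.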
